A study of Arabidopsis thaliana with 12 samples.

Results

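CHLM, CHLI2, PORB and AT1G74470 are 4 nuclear genes, of 13356 named ones on the array, that belong to the magnesium branch of chlorophyll synthesis in Arabidopsis thaliana. They were chosen by name, with earlier results of these data known, as CHLM (AT4G25080), CHLI2 (AT5G45930), PORB (AT4G27440) and AT1G74470, the geranylgeranyl reductase gene. Each has 1 probe set among the 22746 that were tested, and none of these 4 carries the suffix that marks a probe set shared between genes. Their signals were read on 12 Affymetrix ATH1 arrays of RNA from green tissue of Col-0 seedlings aged 3 weeks. The CHLD RNAi line, in which the CHLD transcript is reduced, and Col-0 wild type were sprayed with 20 µg/ml dexamethasone. The CHLM overexpression line and a second set of Col-0 plants were given 20 µM β-estradiol, and each of the 4 groups holds 3 biological replicates. All plants had the Col-0 background and grew on soil at 23 °C with 10 h of light and 14 h of darkness. The promoters of the transgenes, the number of independent lines, the time from spraying to harvest and whether a replicate was 1 plant or a pool are not given in the sources used here, and p-values measure the spread between the replicates as labelled.

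Chlorophyll and haem share a common pathway up to protoporphyrin IX. Magnesium chelatase, built from the subunits CHLH, CHLD and CHLI, places magnesium in that ring and so opens the branch to chlorophyll, while ferrochelatase opens the branch to haem. CHLI is the ATPase subunit, and in Arabidopsis CHLI2 is the minor form beside CHLI1. CHLM then methylates magnesium protoporphyrin IX. Further steps give protochlorophyllide, which PORB, a protochlorophyllide oxidoreductase, reduces in a reaction that needs light. Geranylgeranyl reductase makes the phytyl chain that is attached to the ring at the end of the branch and that also serves tocopherol synthesis. The study altered this branch at its entry, through CHLD, and at the next step, through CHLM.

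The 12 arrays were on a common scale, with medians of the tested probe sets between 6.26 and 6.31 on the log2 scale. One array, Col-0 estradiol replicate 1, was unlike its group. Across probe sets it was correlated at 0.990 with each other array of its group, while those other arrays were correlated at 0.997 and the lowest correlation within any other group was 0.994. For this reason the differences of CHLM, CHLI2, PORB and AT1G74470 between the CHLM line and its Col-0 group are also given without it, as are those of other genes where its omission matters. CHLD has no named probe set here, so its knockdown is not analysed here. RCA, the only measured member of 6 listed markers of photosynthetic leaf cells, lay between 13.84 and 14.09 on all arrays. Of the 2 measured root hair genes, EXPA7 lay between 3.44 and 3.85 and EXPA18 between 4.94 and 5.44.

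CHLM, the methyltransferase gene and the target of the overexpression construct, was high in all arrays of its own line and near the Col-0 values in the CHLD RNAi line. Its log2 signal in the CHLM line was 14.48 in replicate 1, 13.96 in replicate 2 and 14.24 in replicate 3. The estradiol-treated Col-0 arrays read 11.71, 11.72 and 11.68 in the same order. The 3 line arrays lay far above the Col-0 arrays, with no overlap. The rise was 5.75-fold, with a 95% interval from 4.76-fold to 6.95-fold (a log2 difference of 2.52 with an SE of 0.127, 3 arrays in each group, limma adjusted p = 1.30e-07), and without Col-0 estradiol replicate 1 the log2 difference was 2.53. By size it was the second of all rises in this comparison. In replicate 1 of the line no probe set was brighter than CHLM, whose value equalled the array's highest, and 13 and 4 probe sets were brighter in replicates 2 and 3. In Col-0 under estradiol 313 to 335 probe sets were brighter. The upper end of the scale therefore bounds the fold that could be read in the line. No probe sequence was used, so the parts of the native gene and of the transgene in this signal cannot be told apart here.

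In the CHLD RNAi line the CHLM signal was 11.86, 11.55 and 11.55, against 11.55, 11.80 and 11.74 in Col-0 under dexamethasone. The groups overlapped, and 2 of the 3 line arrays equalled the lowest Col-0 array. The log2 difference was -0.04 (SE 0.127, limma adjusted p = 0.886), with a 95% interval from -0.32 to 0.23, which spans ratios from 0.803 to 1.17. The effect on CHLM differed between the lines by 2.57 (SE 0.180, limma adjusted p = 1.44e-06, and 2.57 also without Col-0 estradiol replicate 1), the largest positive difference of all probe sets. In that test of the difference 0.246% of all probe sets passed in the positive direction.

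**Figure D1:**
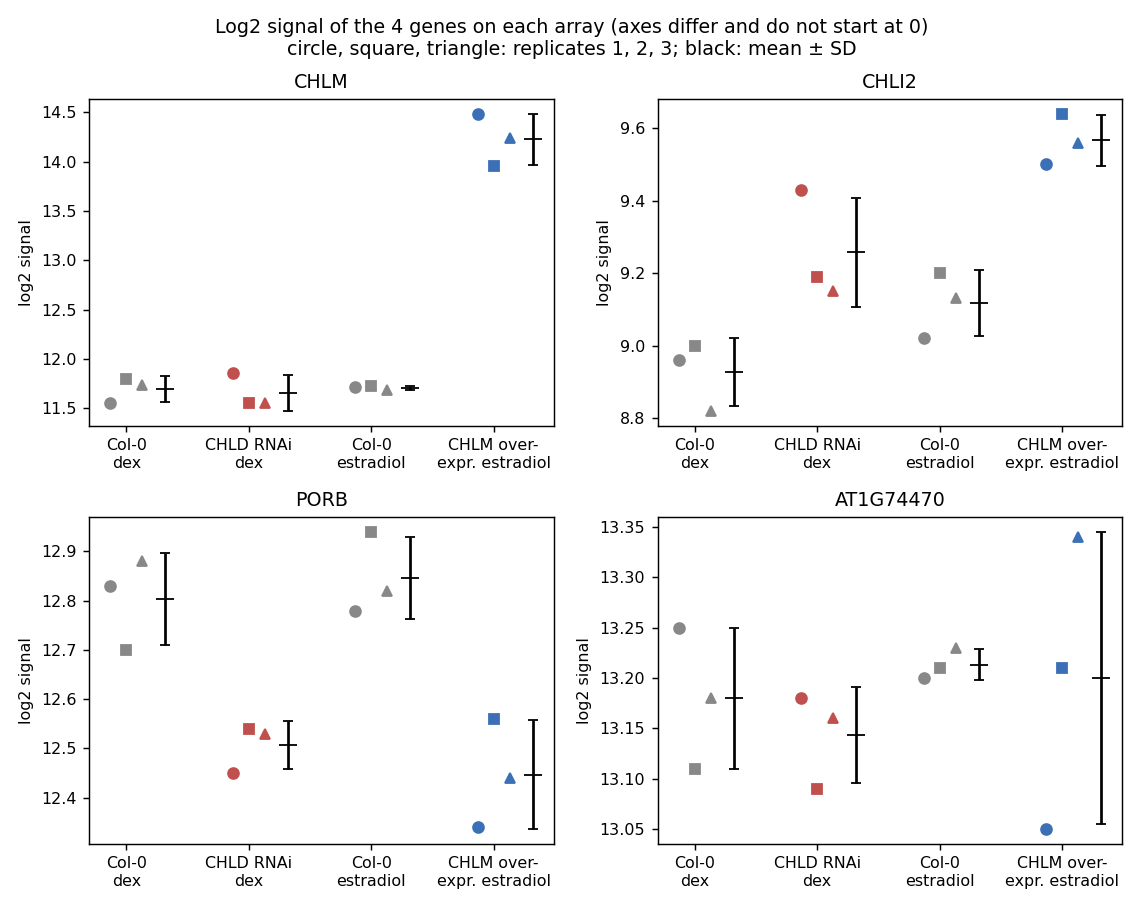
Log2 signal of CHLM, CHLI2, PORB and AT1G74470 (1 panel each, vertical axes differ) on the 12 arrays, by group, with the mean ± SD of 3 arrays in black and the replicate numbers as symbols. CHLM is high in the CHLM line alone, PORB is between 12.34 and 12.56 in the 6 line arrays and between 12.70 and 12.94 in the 6 Col-0 arrays, and AT1G74470 spans 0.29 over all arrays.

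CHLI2, which encodes the minor form of the ATPase subunit of magnesium chelatase, was higher in both lines than in Col-0 with the same inducer. Under dexamethasone its log2 signal was 9.43, 9.19 and 9.15 in the CHLD RNAi line and 8.96, 9.00 and 8.82 in Col-0. Each line array was above each Col-0 array, and replicate 1 of the line was set off from the other two. The difference was 0.33 (SE 0.0967, n = 3 per group, limma adjusted p = 0.0387), a 1.26-fold rise with a 95% interval from 1.09-fold to 1.45-fold. Under estradiol the CHLM line read 9.50, 9.64 and 9.56, against 9.02, 9.20 and 9.13 in Col-0. These groups did not overlap either, and the gap was 0.30 between the lowest line array and the highest Col-0 array. The rise was 1.37-fold, with an interval from 1.18-fold to 1.58-fold (0.45, SE 0.0967, limma adjusted p = 0.0118).

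The CHLI2 rise in the CHLM line kept its call with any single array left out, with adjusted p up to 0.0430, and was 0.40 (SE 0.108, limma adjusted p = 0.0383) without Col-0 estradiol replicate 1. The rise in the CHLD line did not. It was lost on leaving out any of the 3 dexamethasone-treated Col-0 arrays, replicate 1 or 2 of the line, or replicate 3 of estradiol-treated Col-0, where limma gave adjusted p-values from 0.0503 to 0.152 for differences from 0.24 to 0.37. The rises in the lines differed by 0.12 (SE 0.137, limma adjusted p = 0.878), and the 95% interval of that difference, from -0.17 to 0.41, allows ratios from 0.887 to 1.33 between them. Without Col-0 estradiol replicate 1 they differed by 0.07 (SE 0.144).

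PORB, the protochlorophyllide oxidoreductase gene, was lower in both lines. Under dexamethasone its log2 signal was 12.45, 12.54 and 12.53 in the CHLD RNAi line and 12.83, 12.70 and 12.88 in Col-0. The line arrays lay within 0.09 of each other and below all Col-0 arrays. PORB fell 1.23-fold (a log2 difference of -0.30 with an SE of 0.0891, 3 arrays in each group, limma adjusted p = 0.0431), and the 95% interval of the ratio ran from 0.713 to 0.929. In the CHLM line it read 12.34, 12.56 and 12.44, against 12.78, 12.94 and 12.82 in Col-0 under estradiol. The line arrays were again all below the Col-0 arrays, and replicate 1 of the line had the lowest PORB signal of the 12 arrays. The fall was 1.32-fold (-0.40, SE 0.0891, limma adjusted p = 0.0141), and the interval of the ratio ran from 0.664 to 0.865.

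The PORB call in the CHLD line ended without any 1 of the 6 arrays of its comparison, with limma adjusted p between 0.0522 and 0.142. The differences in those refits ran from -0.35 to -0.26. The call was also lost without replicate 3 of Col-0 under estradiol (0.0553), which enters only the shared spread. In the CHLM line leaving out replicate 2 of Col-0 gave -0.35 with an adjusted p of 0.0513, and leaving out replicate 1 of the line gave -0.35 with 0.0573. Without Col-0 estradiol replicate 1 the fall there was -0.43 (SE 0.102, adjusted p = 0.0198). The falls in the lines differed by -0.10 (SE 0.126, limma adjusted p = 0.891), with a 95% interval from -0.37 to 0.17, and by -0.14 (SE 0.136) without that array.

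**Figure D2:**
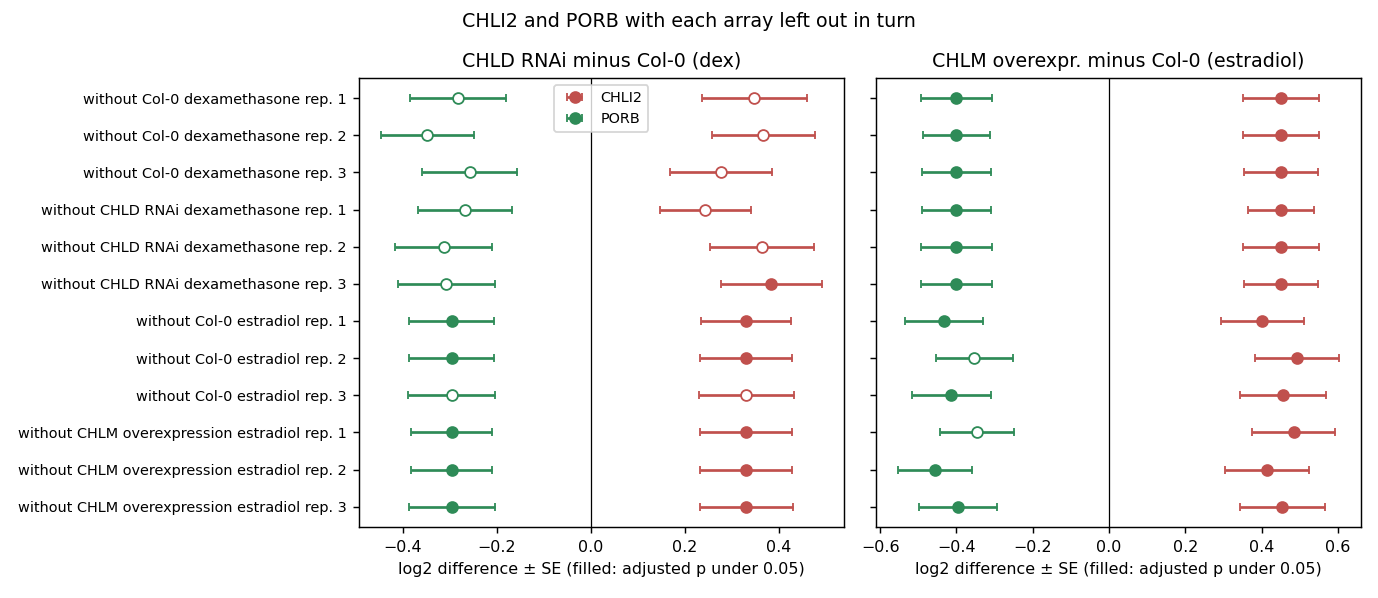
Log2 difference ± SE of CHLI2 and PORB between each line and its own Col-0 group, refitted with each of the 12 arrays left out in turn (filled points have a limma adjusted p under 0.05). CHLI2 stays between 0.24 and 0.49 and PORB between -0.46 and -0.26, so the direction is the same in each refit, while the calls in the CHLD comparison end in several.

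AT1G74470, the geranylgeranyl reductase gene, showed no difference past the threshold in any comparison. Its log2 signal was 13.18, 13.09 and 13.16 in the CHLD RNAi line and 13.25, 13.11 and 13.18 in Col-0 under dexamethasone. The line arrays overlapped Col-0. The log2 difference was -0.04 (SE 0.0882, n = 3 per group, limma adjusted p = 0.856), and its 95% interval from -0.23 to 0.15 allows ratios from 0.855 to 1.11. In the CHLM line the signal was 13.05, 13.21 and 13.34, against 13.20, 13.21 and 13.23 in Col-0 under estradiol. The line arrays spread on both sides of the tight Col-0 arrays, with an SD of 0.145 against 0.0153. The difference there was -0.01 (SE 0.0882, limma adjusted p = 0.954), with ratios from 0.869 to 1.13 inside the interval, and it was -0.02 without Col-0 estradiol replicate 1. A change like that of PORB in the CHLM line, to a ratio of 0.758, lies outside both intervals. The signal was near the upper end of the scale, with only 50 to 71 probe sets brighter on each array. How far this limits the change that can be read was not tested.

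Of the 4 genes, 1 rose and 1 fell in the CHLD RNAi line, where 12.4% of all probe sets passed the threshold, 6.07% upward and 6.34% downward. In the CHLM line 2 rose and 1 fell, one of the rises being that of the gene that was overexpressed. There 9.75% of all probe sets passed, 5.44% upward and 4.3% downward. CHLI2 was called upward in both lines, as were 2.35% of all probe sets, and PORB downward in both, as were 2.26%. The sizes of these changes were moderate beside those of other probe sets. In the CHLD line 17.2% of probe sets had a larger absolute difference than CHLI2 and 20.2% a larger one than PORB, and in the CHLM line the shares were 7.90% and 10.4%. For CHLM in its own line the share was 0.0747%. Groups without overlap, as seen for CHLI2 and PORB, occurred upward in 15.9% and downward in 15.8% of all probe sets in the CHLD comparison, and in 15.1% and 11.3% in the CHLM comparison.

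**Figure D3:**
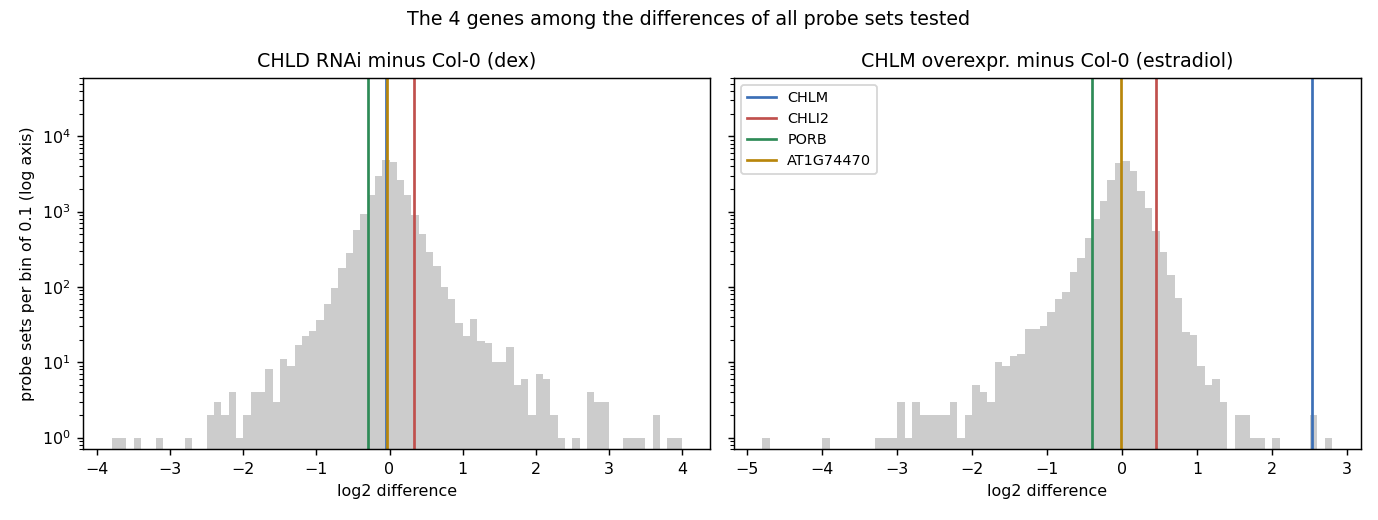
Log2 differences of all 22746 probe sets (grey, probe sets per bin of 0.1, log axis) in the CHLD RNAi line and the CHLM overexpression line, each against its own Col-0 group, with the 4 genes as coloured lines. CHLI2 and PORB lie on opposite shoulders in both panels, at 0.33 and -0.30 on the left and 0.45 and -0.40 on the right, AT1G74470 lies near 0, and CHLM lies far to the right in its own line only.

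The 2 comparisons share no array, so their mean could be tested over all 12. Averaged over the lines, CHLI2 was 0.39 higher than in Col-0 (SE 0.0684, limma adjusted p = 0.00116), a 1.31-fold rise with an interval from 1.18-fold to 1.45-fold. PORB was lower by a mean log2 difference of -0.35 (SE 0.0630, limma adjusted p = 0.00144), or 1.27-fold. In this comparison 12.6% of all probe sets passed upward and 10.8% downward. An exact two-sided permutation of the labels within each inducer, with 400 regroupings, gave p = 0.005 for CHLI2 and p = 0.005 for PORB, the smallest this design allows. These exact p-values are not adjusted, and the genes were chosen with earlier results of these data known. CHLI2 was above the mean of its own Col-0 group in 6 of 6 line arrays, by 0.22 to 0.52, and PORB was below in 6 of 6, by -0.26 to -0.51. The shares of all probe sets that reach such a p or such a 6 of 6 pattern were not computed. For CHLM, which was high in one line only, the exact permutation p of the mean was 0.065, and for AT1G74470 it was 0.66 (mean difference -0.03, limma adjusted p = 0.829). Within a single comparison of 3 against 3 arrays the exact p cannot go below 0.1.

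With any single array left out, the limma adjusted p of the mean stayed between 0.00152 and 0.00402 for CHLI2 and between 0.00158 and 0.00489 for PORB. Without Col-0 estradiol replicate 1 the means were 0.37 (adjusted p = 0.00233) and -0.37 (adjusted p = 0.00158). For PORB the separation also held across inducers, since all 6 line arrays, at 12.34 to 12.56, were below all 6 Col-0 arrays, at 12.70 to 12.94, which was true of 3.68% of all probe sets. For CHLI2 it did not, because CHLD RNAi replicates 2 and 3, at 9.19 and 9.15, were below Col-0 estradiol replicate 2, at 9.20.

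**Figure D4:**
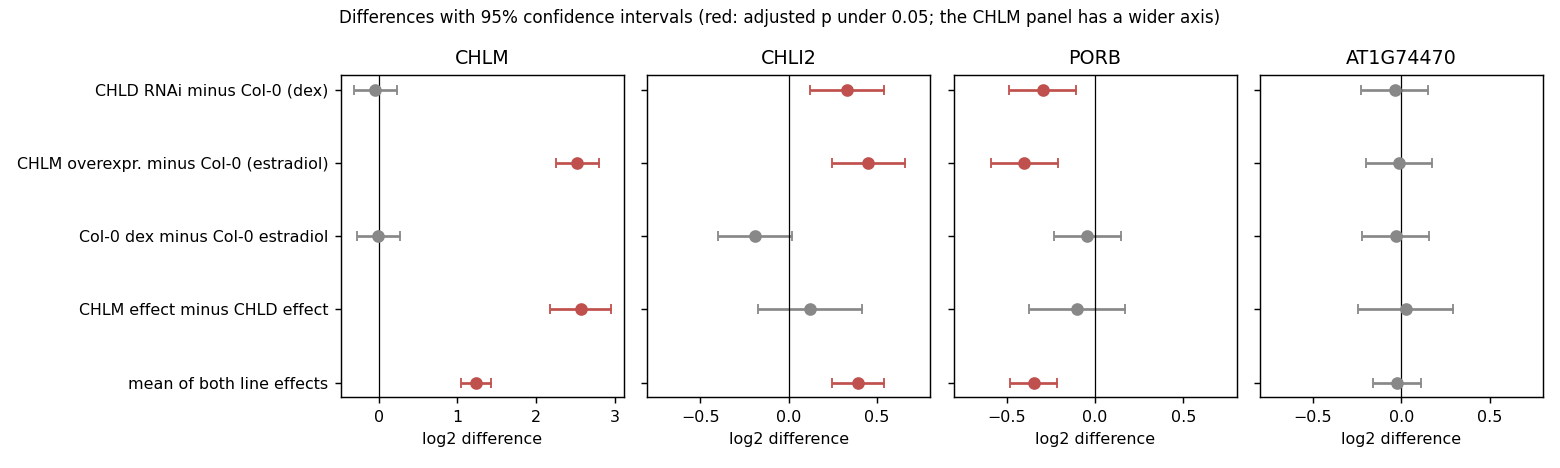
Log2 differences of the 4 genes with 95% confidence intervals in the 5 comparisons (red where the limma adjusted p is under 0.05, with a wider axis for CHLM). For CHLI2 and PORB the effects of the lines have the same sign and the interval of their difference includes 0, and all intervals of AT1G74470 include 0.

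Between the Col-0 groups, which differ in the inducer they received, none of the 4 genes passed the threshold, and 0.0484% of all probe sets did (11, or 2407 at an unadjusted p under 0.05). CHLM differed by -0.01 (SE 0.127), PORB by -0.04 (SE 0.0891) and AT1G74470 by -0.03 (SE 0.0882), dexamethasone minus estradiol. The largest difference was that of CHLI2. Its 3 values under dexamethasone, 8.82 to 9.00, lay below the 3 under estradiol, 9.02 to 9.20, as was so for 6.74% of all probe sets, and the log2 difference was -0.19 (SE 0.0967, limma adjusted p = 0.516, 95% interval from -0.40 to 0.02). Without Col-0 estradiol replicate 1 it was -0.24 (SE 0.108, adjusted p = 0.288), while the number of probe sets called in this comparison went from 11 to 728.

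The genes also differed in how much they varied among replicates. The SD within groups, pooled over the 4 groups, was 0.171 for CHLM, 0.106 for CHLI2, 0.0868 for PORB and 0.0844 for AT1G74470. A smaller SD was found in 75.1% of all probe sets for CHLM, in 25.9% for CHLI2, in 11.6% for PORB and in 10.2% for AT1G74470. The SD of CHLM was unlike between groups, at 0.260 in the CHLM line and 0.179 in the CHLD RNAi line. In Col-0 it was 0.131 under dexamethasone and 0.0208 under estradiol. Deviations from the group means of CHLM and PORB were opposed over the 12 arrays (Pearson r = -0.71, a description over arrays of 4 groups in which replicates 1 and 2 of the CHLM line lie farthest from their CHLM mean). In the CHLM line the array order of CHLM, highest in replicate 1 and lowest in replicate 2, was the reverse of that of PORB, over 3 arrays only. CHLI2 and PORB showed no such relation within groups (r = -0.0009). Among the pairs of the 4 genes, CHLM and PORB had the largest absolute r. The share of all probe sets opposed to CHLM this strongly was not computed, and a relation between the signals of CHLM and PORB was not tested.

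Other genes of the pathway were measured through 12 of 62 listed genes, and none of the 12 passed the limma threshold in either line (1 in the CHLD line and 5 in the CHLM line had an unadjusted p under 0.05), beside 12.4% of all probe sets in the CHLD line and 9.75% in the CHLM line. HEMA3 and hemb2, counted among the 12, had group means of only 3.57 to 3.85. These lie below the minimum mean log2 of 5 used as an alternative, so their lack of a call says little. The median log2 difference of the 12 was 0.05 in the CHLD RNAi line and 0.05 in the CHLM line, where the medians over all probe sets were -0.01 and 0.02. Within the magnesium branch only LIL3:1 and LIL3:2 of 14 other listed genes had a named probe set. They encode light-harvesting-like membrane proteins that hold geranylgeranyl reductase at the thylakoid. LIL3:1 read 11.02, 10.98 and 11.00 in the CHLM line, against 10.77, 10.76 and 10.75 in Col-0 under estradiol. The groups did not overlap, but the difference of 0.24 (SE 0.0853) had a limma adjusted p of 0.0932, and 0.165 without Col-0 estradiol replicate 1. In the CHLD line LIL3:1 stood at 0.10 (SE 0.0853, adjusted p = 0.523), and LIL3:2 differed by -0.04 and -0.02 in the CHLD and CHLM lines (SE 0.0956). Over the mean of the lines LIL3:1 was 0.17 higher (SE 0.0603, limma adjusted p = 0.0560). That mean passed with trended variances (limma adjusted p = 0.0406) and with a minimum mean log2 of 5 (0.0407). Without Col-0 estradiol replicate 1 it did not (0.0811).

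In the common part of the pathway 8 of 15 listed genes were measured. Over the mean of the lines HEME2 rose and HEME1 fell, and the other 6 did not pass. These 2 of 8 are 25% of the measured genes, near the 23.4% of all probe sets that passed in this comparison. Both encode uroporphyrinogen decarboxylase, an enzyme of the common steps that lead to protoporphyrin IX. HEME2 was 0.19 (SE 0.104) higher in the CHLD line and 0.34 (SE 0.104, limma adjusted p = 0.0529) higher in the CHLM line, with a mean of 0.27 (SE 0.0739, adjusted p = 0.0179). Its rise in the CHLM line did pass with trended variances (limma adjusted p = 0.0397) and with a minimum mean log2 of 5 (0.0404). Without Col-0 estradiol replicate 1 that rise was smaller, at 0.285 (SE 0.114, limma adjusted p = 0.160), and did not pass. HEME1 was at -0.21 (SE 0.0940) and -0.20 (SE 0.0940), with a mean of -0.20 (SE 0.0664, adjusted p = 0.0379). Without Col-0 estradiol replicate 1 the means were 0.24 (adjusted p = 0.0387) for HEME2 and -0.22 (adjusted p = 0.0433) for HEME1. The HEME2 call held with each array left out in turn, with adjusted p up to 0.0489. The HEME1 call was lost in 7 of the 12 refits, those that left out replicate 2 or 3 of Col-0 under dexamethasone, the same replicates of the CHLD line, replicate 2 of Col-0 under estradiol, or replicate 1 or 3 of the CHLM line, where the adjusted p was 0.0657 to 0.0899.

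GSA1, which encodes the enzyme that forms 5-aminolevulinic acid, had a mean difference of 0.20 (SE 0.0845, limma adjusted p = 0.104). With replicate 1 of estradiol-treated Col-0 left out it was 0.125 (adjusted p = 0.224), while leaving out replicate 3 of that group gave 0.26, past the threshold (adjusted p = 0.0335). HEMA2, a glutamyl-tRNA reductase gene, depended on the array that stood apart. Its signal was 6.54, 6.68 and 6.70 in the CHLM line and 6.68, 6.16 and 5.99 in Col-0 under estradiol, so that replicate 1 of Col-0 was at the level of the line. The log2 difference was 0.36 (SE 0.143, adjusted p = 0.126), and 0.57 without that array (SE 0.109, adjusted p = 0.00663). NOL, a reductase gene of chlorophyll b breakdown, and AT1G78620, listed with tocopherol synthesis, were the only measured genes of their lists, with mean differences of 0.08 (SE 0.0644, and 0.12 without that array) and 0.17 (SE 0.0685, adjusted p = 0.101).

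**Figure D5:**
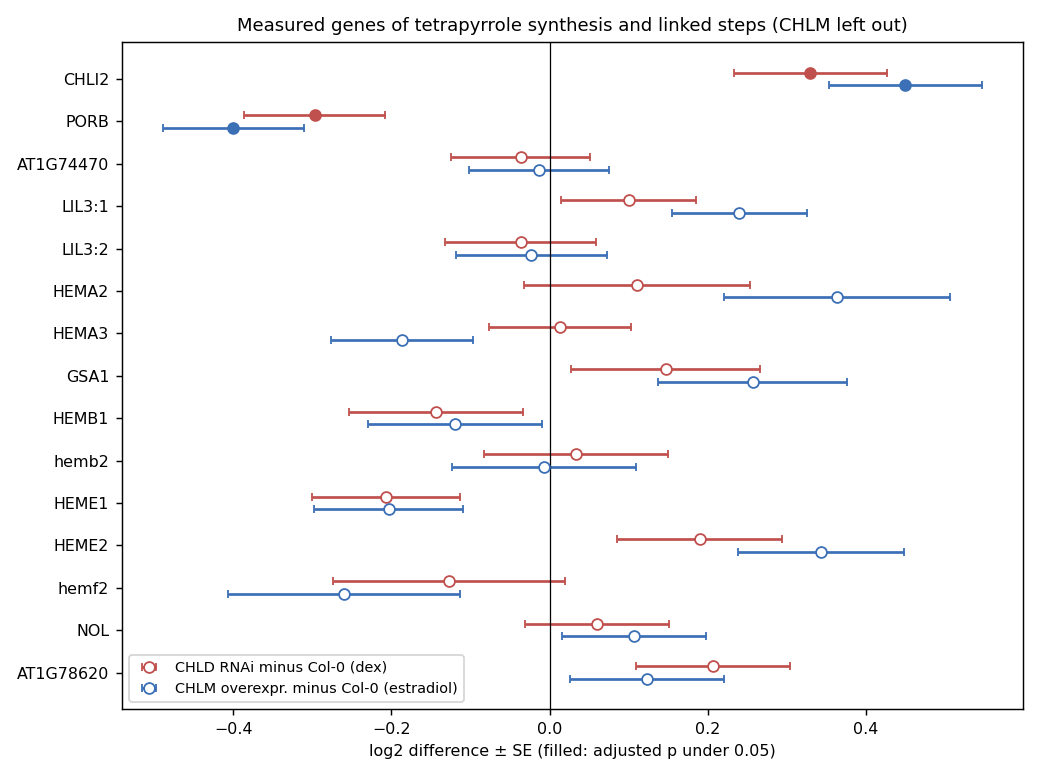
Log2 difference ± SE of the 15 measured pathway genes other than CHLM, in the CHLD RNAi line (red) and the CHLM overexpression line (blue), each against its own Col-0 group (filled where the limma adjusted p is under 0.05). Filled points occur for CHLI2 and PORB alone, at 0.33 and 0.45 for CHLI2 and -0.30 and -0.40 for PORB.

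Of 6 listed genes of the guard cell lineage 4 were measured. In each line 1 of the 4 passed the threshold, a different gene and in the opposite direction, beside 12.4% of all probe sets in the CHLD line and 9.75% in the CHLM line. The mean log2 signal of these 4 was 5.27 to 5.45 in the CHLD RNAi line, 5.51 to 5.66 in Col-0 under dexamethasone, 5.47 to 5.74 in Col-0 under estradiol and 5.82 to 5.92 in the CHLM line. FMA, a transcription factor gene of guard cell differentiation, fell by 0.38 in the CHLD line (SE 0.109, limma adjusted p = 0.0361). That call was lost on leaving out replicate 2 or 3 of either group compared, at adjusted p-values from 0.0896 to 0.141. It was also lost with the replicate number as a block (limma adjusted p = 0.0512) and with trended variances (0.0512). Over the mean of the lines FMA was at -0.30 (SE 0.0769, limma adjusted p = 0.0117). That mean also passed with the block (0.0187), with trended variances (0.0180) and without Col-0 estradiol replicate 1 (-0.32, 0.0100). In the mean 2 of the 4 genes passed, FMA downward and AT1G22690 upward, beside 23.4% of all probe sets. AT1G22690 rose by 0.98 in the CHLM line (SE 0.122, limma adjusted p = 5.54e-04), and by 0.83 with replicate 1 of estradiol-treated Col-0 left out (adjusted p = 3.66e-04). In the CHLM line the other measured genes of the list did not pass, at -0.22 for FMA (SE 0.109), -0.11 for SPCH (SE 0.118) and 0.29 for MUTE (SE 0.115), so the higher mean of the 4 there rests mainly on AT1G22690. SPCH and MUTE did not pass in the CHLD line either. MUTE had group means of only 3.81 to 4.13, below the minimum mean log2 of 5 used as an alternative, so its lack of a call says little. The part of these changes in the signals of CHLI2 and PORB was not tested, and in whole green tissue fewer cells of a type and less RNA per cell cannot be told apart.

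Among 13435 other probe sets with a named gene, the patterns most like that of each member were found by Pearson r over the 12 arrays, as a description. For CHLM they were LCR68 (r = 0.98), AT2G35750 (0.98) and AT4G39150 (0.95), all of which rose in the CHLM line, by 0.83, 1.25 and 0.42. Over the 9 arrays outside that line their r with CHLM was 0.46, 0.35 and -0.47, so the likeness rests on the 3 arrays of the line. For CHLI2 they were AT2G21385, AT3G25410 and AT5G56940 (0.97, 0.97 and 0.96), and for PORB AT3G18050 (0.94), AT5G07740 (0.93) and AT2G15560 (0.93). Without the CHLM line these r values were 0.93, 0.91 and 0.94 for CHLI2 and 0.95, 0.92 and 0.92 for PORB. Those 9 arrays are among the 12 by which the genes were picked, so high values there are no separate support. For deviations from the group means over the 12 arrays, r was 0.79, 0.77 and 0.84 for CHLI2 and 0.75, 0.51 and 0.61 for PORB. AT2G15560 shares the shape of PORB but not the size, at -3.74 and -3.27 in the CHLD and CHLM lines. For AT1G74470 the highest were AT1G01830 (0.88), AT2G43390 (0.85) and AT4G36790 (0.83), none of which passed the threshold in either line. Without the CHLM line their r with AT1G74470 was 0.62, 0.60 and 0.68. For deviations from the group means, over the same 12 arrays by which they were picked, it was 0.90, 0.92 and 0.90. For LCR68, AT2G35750 and AT4G39150 the r of such deviations with CHLM was 0.82, 0.60 and -0.37.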

How the data were processed

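The authors deposited 1 column of log2 signal values per array. Per the submitters' processing notes, the software was Affymetrix Expression Console. Version, summary method and normalization are not given in the sources used here, and log base 2 was taken from the range of values, 2.39 to 14.49. RNA was labelled from 100 ng per sample, per the labels' protocols. All 12 columns were used (0 left out). Of 22809 probe sets, 63 AFFX controls were dropped. GEO's platform annotation gave 1 gene to 13513, several to 503 and none to 8730. Symbols came from the RefSeq table of TAIR10.1. No genome, probe or promoter sequence was used here.

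In R 4.3.3, limma 3.58.1 fitted the 4 groups in 1 model (8 residual and 6.05 prior degrees of freedom), with two-sided p-values adjusted by Benjamini-Hochberg over 22746 probe sets in each of 5 comparisons, and an adjusted p under 0.05 as the threshold. No background flags were used, and the number of arrays limits the precision. The fit was tested on simulated data. All 4 members, the listed pathway genes past the threshold and the 3 most alike genes per member were named. Members and lists were chosen with earlier results of these data known. Alternatives were a replicate block, trended and robust variances, quantile normalization, a minimum mean log2 of 5, fits of the compared groups alone and each array left out.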

Additional observations from a re-analysis of the deposited data

Results flagged for a closer look

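For 2 of the genes described above, CHLM and AT1G22690, the effect of the CHLM overexpression line differed from that of the CHLD RNAi line by the test of the difference itself, which 1.13% of all probe sets passed. CHLM differed by 2.57 on the log2 scale (SE 0.180, limma adjusted p = 1.44e-06), which is the overexpressed gene. AT1G22690, from the guard cell list, differed by 1.23 (limma adjusted p = 0.00147), with 0.98 in the CHLM line and -0.25 in the CHLD line (limma adjusted p = 0.205 for the latter).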

How the results depend on the processing

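No member that passed the threshold changed sign under any alternative. In the CHLD comparison CHLI2 was at 0.33 but not past the threshold with the replicate block (limma adjusted p = 0.0512) or with only the compared groups fitted (0.0513). PORB was at -0.30 with the block (0.0565) and -0.26 after quantile normalization (0.0831), neither past it. In the CHLM comparison PORB, at -0.40, was not past it with only the compared groups fitted (0.0599). The block changed no other call of a member. Same-numbered replicates did not deviate together (r over 0.1 in 1 of 18 pairs, and 3 of 12 arrays correlated best with their own number), so the numbers were not taken as pairs. Near 0, quantile normalization turned AT1G74470 in the CHLM comparison to 0.0106 and CHLM between the Col-0 groups to 0.0156. The count called between the Col-0 groups was 25 with the block, 43 with trended, 31 with robust variances and 17 with the compared groups alone, and the CHLM count was 855 with the compared groups alone. The other 128 of 140 values kept direction and side of the threshold or, for counts, stayed close to the count given.

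With each array left out in turn, counts called ran from 1563 to 3626 (CHLD), 1156 to 2090 (CHLM), 0 to 728 (Col-0 groups) and 187 to 492 (difference of effects). CHLI2 in the CHLD line ran from 0.24 to 0.38, PORB from -0.35 to -0.26 there and from -0.46 to -0.35 in the CHLM line. Values of uncalled members changed sign within -0.147 to 0.00833 (CHLM in the CHLD line), -0.0583 to 0.0667 (CHLM between Col-0 groups), -0.0817 to 0.00833 (PORB there), -0.0683 to 0.00167 (AT1G74470 there), -0.0833 to 0.0617 (AT1G74470 in the CHLM line), -0.0467 to 0.0983 (its difference of effects) and -0.0600 to 0.0125 (its mean, also in the exact test). Each member has 1 probe set, so no other probe set could be tried. The cause of these shifts was not tested.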
